A study of Mus musculus with 6 samples.

Results

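Prodh, Aldh4a1, Gls2, Slc19a2, Dcxr, Tigar, Pank1, Sco2, Lpin1 and Cpt1c are 10 genes of metabolism that have been described as targets of p53, and they were read by 13 probes on 1-colour Agilent arrays. All 10 had a probe among the 17848 genes tested. They were found by matching the RefSeq accession of each probe, without its version, to the mouse symbols. The genes were chosen by their log2 differences between DMBA and vehicle in these same arrays, already known when they were picked, so the differences below describe them and carry no test.

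RNA came from epidermal cells of male mice, sorted for a strong keratin 15 promoter EGFP reporter (K15-EGFP), high integrin alpha 6 and no surface Sca1, a gate for hair follicle stem cells and hair germ. All mice were depilated. The skin of 3 mice then received the vehicle, acetone, and that of 3 others DMBA (7,12-dimethylbenz[a]anthracene), a polycyclic hydrocarbon whose metabolites damage DNA, and cells were taken 3 days after exposure. The age and strain of the mice are not given in the sources used here. Each array holds the cells of 1 sample, and the samples of a group came from different mice.

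p53, encoded by Trp53, is a transcription factor that DNA damage stabilises. Besides genes of arrest and death it activates genes that feed proline, glutamine and sugars into redox and mitochondrial pathways. Several of these genes have other strong regulators too, such as the nutrient-sensing factors that act on Lpin1 in liver and muscle.

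The genes did not move as a block: 5 had a higher mean after DMBA and 5 a lower one, with a median log2 difference of 0.13 over the 10, beside -0.01 over all genes tested. Prodh, which starts proline breakdown, was 5.11-fold higher, the sugar reductase gene Dcxr 3.79-fold, the carnitine palmitoyltransferase gene Cpt1c 3.71-fold and the thiamine transporter gene Slc19a2 3.33-fold. Sco2 was 1.37-fold higher. Tigar, Aldh4a1, Gls2 and Pank1 were 1.15-fold, 1.35-fold, 1.32-fold and 2.13-fold lower, with groups that overlapped. Lpin1 was 5.60-fold lower, a value that rests on DMBA 2, where its probe was not well above background: the log2 difference of -2.49 was -1.21 without that array and 0.20 on the other probe.

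For 5 of the 10 genes every DMBA value exceeded every vehicle value, beside 4.88% of all genes tested, and for 0 of the 10 they lay below, beside 5.17%. A log2 difference above 1 was found for 4 of the 10, beside 4.43% of all genes tested. These shares belong to the contrast by which the genes were picked, so nothing is read from them. With limma and Benjamini-Hochberg adjustment, 0 of 17848 genes (0%) passed, the 10 included (smallest adjusted p = 0.438). An unadjusted p below 0.05 was reached by 488 genes with a positive difference (2.73%) and 445 with a negative one (2.49%).

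**Figure D1:**
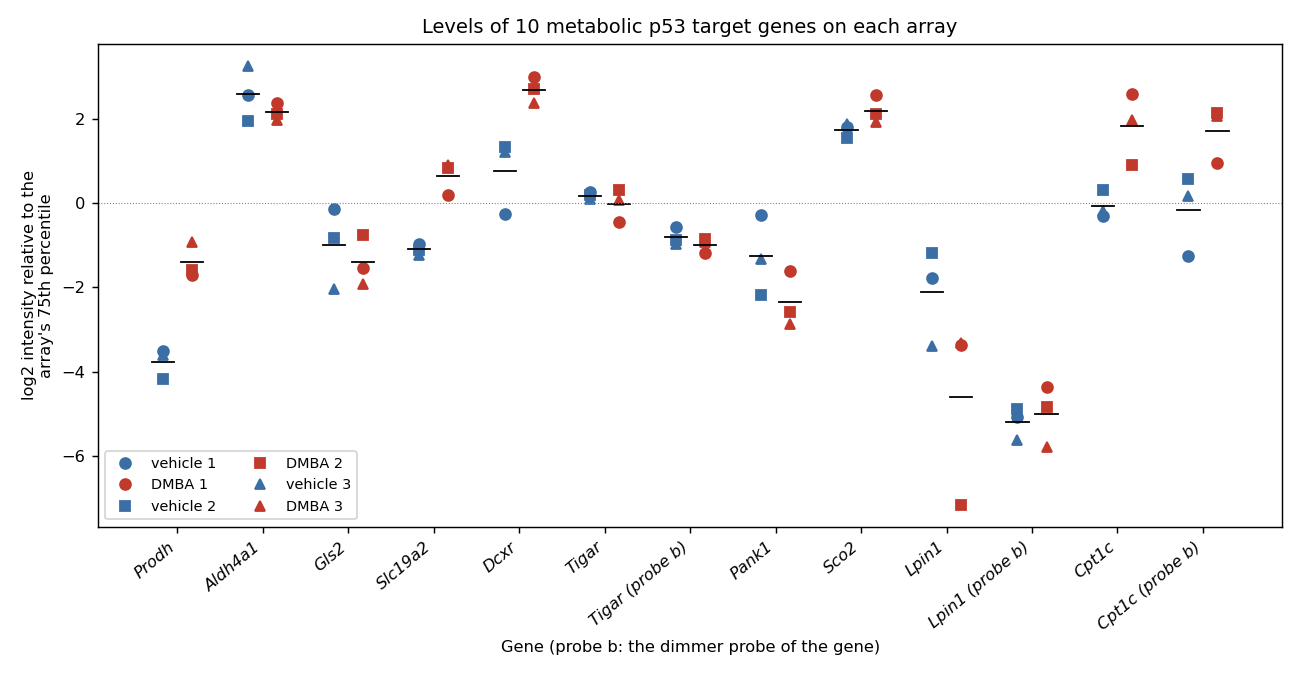
Log2 intensity against each array's 75th percentile (y axis) for the 13 probes of the 10 genes (x axis), with vehicle arrays in blue, DMBA arrays in red, a marker shape for each array and a bar at each group mean. The DMBA points lie above all vehicle points for Prodh, Slc19a2, Dcxr, both Cpt1c probes and, by 0.03, Sco2.

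The starts of the 4 genes with the largest positive differences are shown because these genes share a direction in the arrays. Each sequence runs from 250 bases before to 50 after the annotated start, 5′ to 3′ on the strand of the gene, from RefSeq on GRCm38.p6. Capitals mark CATG, the most common core of a p53 site, which reads the same on both strands. The windows are chr16:18089141-18089440 on the minus strand for Prodh, chr1:164248796-164249095 on the plus strand for Slc19a2, chr11:120727235-120727534 on the minus strand for Dcxr and chr7:44974802-44975101 on the minus strand for Cpt1c.
Prodh: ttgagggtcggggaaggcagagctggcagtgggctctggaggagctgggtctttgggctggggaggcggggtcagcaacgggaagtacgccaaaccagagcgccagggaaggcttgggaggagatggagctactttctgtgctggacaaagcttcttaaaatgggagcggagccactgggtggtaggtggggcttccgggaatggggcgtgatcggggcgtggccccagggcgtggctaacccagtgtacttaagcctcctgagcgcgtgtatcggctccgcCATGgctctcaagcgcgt
Slc19a2: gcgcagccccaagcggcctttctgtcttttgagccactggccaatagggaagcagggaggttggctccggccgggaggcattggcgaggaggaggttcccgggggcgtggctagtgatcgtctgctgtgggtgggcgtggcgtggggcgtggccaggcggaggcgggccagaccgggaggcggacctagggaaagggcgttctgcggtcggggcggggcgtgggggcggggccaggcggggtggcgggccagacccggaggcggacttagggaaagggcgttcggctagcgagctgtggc
Dcxr: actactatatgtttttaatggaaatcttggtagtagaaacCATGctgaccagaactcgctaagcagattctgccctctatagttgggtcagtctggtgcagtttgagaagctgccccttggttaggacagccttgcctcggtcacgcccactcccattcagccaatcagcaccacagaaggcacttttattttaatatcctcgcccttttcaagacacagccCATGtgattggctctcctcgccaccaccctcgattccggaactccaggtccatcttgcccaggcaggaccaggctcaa
Cpt1c: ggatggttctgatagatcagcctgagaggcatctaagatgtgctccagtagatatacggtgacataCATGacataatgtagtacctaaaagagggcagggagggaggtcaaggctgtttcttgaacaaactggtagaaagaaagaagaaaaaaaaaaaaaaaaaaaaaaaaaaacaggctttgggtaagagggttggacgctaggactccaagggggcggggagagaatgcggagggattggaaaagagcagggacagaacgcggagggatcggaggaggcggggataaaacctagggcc

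A window was found for 9 of the 10 genes (all but Gls2), with 2 for Pank1. The complete p53 consensus half-site occurred in 0 of these 10 windows and in 8.4% of the 32851 windows of all genes. CATG occurred in 7 of the 10 windows, those of 6 of the 9 genes, and in 61.1% of all windows. It lay at -210 and -28 relative to the start of Dcxr and at -184 in Cpt1c. In Prodh it lay at 33, after the start and so in the transcribed part, while Slc19a2 had none. GGGCGG, the core of a GC box, was found on either strand in 4 of the 10 windows (2 copies each for Slc19a2 and Tigar, 1 each for Sco2 and Cpt1c) and in 35.7% of all windows. TATAAA, the TATA box, was found on either strand in 1 of the 10 windows, for Pank1, and in 13.6% of all windows. The windows ranged from 47.3% G and C in Cpt1c to 72.0% in Slc19a2, around a median of 52.7% over all windows, so the genes did not share a base composition. Of the motifs searched, none occurred in the windows of all 9 genes. A match is a string of letters and shows no binding.

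Proline and glutamine enter the mitochondrial glutamate pool through 3 of the genes. Prodh encodes proline dehydrogenase, which oxidises proline to pyrroline-5-carboxylate and passes electrons to the respiratory chain. Its log2 levels, set against each array's 75th percentile as throughout, were -3.50, -4.18 and -3.59 for vehicle 1 to 3 and -1.70, -1.58 and -0.93 on DMBA 1 to 3. The lowest DMBA array lay 1.81 above the highest vehicle array, the widest gap among the 10 genes, and every array was well above background. The log2 difference was 2.35 (SE 0.32), which 0.454% of all genes tested exceeded. In such bulk samples, more RNA per cell and more cells of a type that makes the RNA cannot be told apart.

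Aldh4a1 encodes the next enzyme of the route, which turns pyrroline-5-carboxylate into glutamate, and it did not share the pattern of Prodh. Its levels were 2.57, 1.94 and 3.25 in vehicle and 2.38, 2.10 and 1.96 in DMBA. All 3 DMBA values lay inside the vehicle range, and the difference was -0.44 (SE 0.37). Vehicle 3 was the highest of the 6 arrays, and without it the difference was -0.11. Gls2, the liver-type glutaminase that releases glutamate from glutamine, read -0.13, -0.84 and -2.03 in vehicle and -1.53, -0.76 and -1.92 in DMBA. The groups overlapped throughout, the difference was -0.40 (SE 0.55), and without vehicle 1, the highest array, it was 0.03.

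The neighbouring genes of amino acid metabolism showed no shift of the size of Prodh. Of 16 measured genes of proline, glutamate and glutamine metabolism other than the 3 above, 9 were higher and 7 lower, their median was 0.09 and their values ran from -0.68 to 0.52. With limma 0 passed over all genes and 0 had an unadjusted p under 0.05. Prodh2, the hydroxyproline counterpart of Prodh, had a difference of -0.28 (SE 0.21; groups apart), the ornithine aminotransferase Oat, which also makes pyrroline-5-carboxylate, 0.14 (SE 0.33) and Aldh18a1, the first enzyme of proline synthesis, 0.40 (SE 0.47). Pycr1, which makes proline from pyrroline-5-carboxylate, had no matched probe. Glutamine synthetase (Glul) and glutamate dehydrogenase (Glud1) had -0.30 and 0.06. Asns, which makes asparagine from glutamine nitrogen and is a target of the amino acid response, had 0.52 (SE 0.24), and the transaminase gene Got2 0.23 (SE 0.22), both with groups apart. For Got2 the lowest DMBA array read 3.75, beside 3.72 on the highest vehicle array.

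Slc19a2 and Pank1 serve cofactors, thiamine and coenzyme A, and went opposite ways. Slc19a2 encodes the high-affinity thiamine transporter THTR1. It read -0.96, -1.12 and -1.22 in vehicle and 0.20, 0.83 and 0.89 in DMBA. The vehicle arrays were close together (SD 0.13), DMBA 1 was the lowest of its group, and the groups were 1.15 apart. The difference was 1.74 (SE 0.27), exceeded by 1.17% of all genes tested, and it ranged from 1.61 to 1.96 when each array was left out.

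Among 13 other genes of thiamine transport and use, 5 were higher and 8 lower, with a median of -0.04. The reduced folate carrier gene Slc19a1, a paralog of Slc19a2 that carries folates, had the largest value, 1.22 (SE 0.33; 0.80 on its other probe). Its levels were -0.03, 0.59 and 0.80 in vehicle and 1.34, 2.12 and 1.57 in DMBA, so the groups did not overlap. It was the 1 gene of this list with an unadjusted p under 0.05 (unadjusted p = 0.00982, limma), and it did not pass over all genes. The second thiamine transporter gene, Slc19a3, had -1.04 (SE 0.95), but only 1 of its DMBA values was well above background.

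Pank1 encodes a pantothenate kinase, the enzyme of the rate-limiting step of coenzyme A synthesis. It read -0.29, -2.17 and -1.33 in vehicle and -1.60, -2.58 and -2.87 in DMBA, so DMBA 1 lay inside the vehicle range. The difference was -1.09 (SE 0.57), and it was -0.60 without vehicle 1, the highest array. The other pantothenate kinase genes Pank2, Pank3 and Pank4 had 0.22, -0.11 and -0.05, each with overlapping groups. Of 11 other genes of coenzyme A metabolism 5 were higher and 6 lower (median -0.05). Ppcs, the next step after Pank1, had -0.51 (SE 0.22) with groups apart, and Coasy, the last step, -0.11.

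Dcxr and Tigar act on sugars. Dcxr encodes dicarbonyl and L-xylulose reductase, an NADPH-dependent enzyme of the uronate cycle that also reduces reactive dicarbonyls. Its levels were -0.27, 1.34 and 1.21 in vehicle and 2.98, 2.71 and 2.36 in DMBA. Vehicle 1, the array on its own slide, was the lowest by far, but the lowest DMBA array still lay 1.02 above the highest vehicle array. The difference was 1.92 (SE 0.48), and it was 1.41 without vehicle 1, which is also the value within the slide that held both groups.

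Of 15 other reductases and enzymes of uronate and polyol metabolism, 7 were higher and 8 lower, and their median was 0. The carbonyl reductase gene Cbr3, known as a target of the oxidant-responsive factor NRF2, had the largest difference, 0.88 (SE 0.32, unadjusted p = 0.0316 with limma), with groups that did not overlap. Cbr2, the closest relative of Dcxr in this list, had -0.05 (SE 0.24), sorbitol dehydrogenase (Sord) 0.01 and Ugdh, which makes UDP-glucuronate, -0.50 (SE 0.33). Xylb, which phosphorylates the xylulose that Dcxr leads to, had -0.61 (SE 0.32), with groups apart.

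Tigar encodes a fructose-2,6-bisphosphatase that lowers glycolysis in favour of the pentose phosphate pathway. Its brighter probe read 0.25, 0.19 and 0.09 in vehicle and -0.46, 0.32 and 0.07 in DMBA, a difference of -0.20 (SE 0.27). The other probe gave -0.18, with -0.57, -0.87 and -0.98 against -1.18, -0.85 and -0.93. Groups overlapped on both probes, and without DMBA 1 the value of the brighter probe was 0.01. Among 16 measured genes of this branch 5 were higher and 11 lower (median -0.09). The kinase and phosphatase genes Pfkfb3, Pfkfb2 and Pfkfb4, which set the same metabolite, had 0.74 (SE 0.52; -0.06 on the other probe), -0.29 and -0.54. G6pdx, the entry to the pentose phosphate pathway, had -0.03 (SE 0.24) and the gluconeogenic Fbp1 -0.03 (SE 0.99), while Pfkfb1 was not tested. Among the DMBA arrays, Fbp1 was well above background on only 1, and Pfkfb2 and Pfkfb4 on 2. Pgls, the lactonase of the pathway, had 1.19 (SE 0.60) and Rpia, an isomerase of its other arm, -0.72 (SE 0.29, unadjusted p = 0.0453 with limma), each with groups that did not overlap. Vehicle 1 was the lowest array for Pgls, at -0.20 beside 1.62 and 1.77 on the other vehicle arrays.

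Sco2 encodes a copper chaperone needed to assemble cytochrome c oxidase. It read 1.80, 1.53 and 1.88 in vehicle and 2.56, 2.11 and 1.91 in DMBA, a difference of 0.45 (SE 0.26). The groups were 0.03 apart, and without DMBA 1 the difference was 0.27. Of 16 other assembly factor genes measured, 9 were higher and 7 lower, with a median of 0.11. The paralog Sco1 had -0.51 (SE 0.92; 0.32 on its other probe), Surf1 -0.18 and the copper carrier gene Cox17 0.18. Coa7 had 1.36 (SE 0.52, unadjusted p = 0.0373) and Coa6 -0.64 (SE 0.22, unadjusted p = 0.0279), each with groups apart, and neither passed limma's test over all genes.

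Lpin1 and Cpt1c belong to lipid metabolism. Lpin1 encodes a phosphatidate phosphatase of glycerolipid synthesis that also acts as a transcriptional coactivator in liver and muscle. Its brighter probe read -1.78, -1.19 and -3.39 in vehicle and -3.36, -7.15 and -3.31 in DMBA. The 2 other DMBA arrays lay level with vehicle 3, and DMBA 2 alone, where the probe was not well above background, lay far lower. The difference of -2.49 (SE 1.16) was -1.21 without DMBA 2 and -0.61 (SE 1.01) when the share of probes above background entered the fit. The dimmer probe, above background on 3 of the 6 arrays, gave 0.20. The paralogs Lpin2 and Lpin3 had 0.03 and 0.06, and the acyltransferase genes of the last step, Dgat1 and Dgat2, 0.30 and 0.21.

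Among 19 other genes of phosphatidate and triglyceride metabolism 10 were higher and 9 lower (median 0.03, from -0.55 to 1.96). In 3 of them the DMBA arrays lay below all vehicle arrays, 15.8% of the list beside 5.17% of all genes tested. They were Gpat4 and Agpat1 with -0.55 each (SE 0.23) and Gpam with -0.51 (SE 0.24; -0.05 on its other probe), the last named after its values were seen. Their unadjusted p in limma ran from 0.0542 to 0.0794. Other acyltransferase genes of the same steps, also named after their values were seen, lay on both sides of 0. Gpat3 had 1.96 (SE 1.17), but its vehicle arrays read -3.37, -5.07 and -8.12, and only 2 of them were well above background. Agpat4 had 1.02 (SE 0.64) and Agpat2 0.38 (SE 0.33), with -0.56 on the other probe of Agpat2. Agpat3 had -0.25 (SE 0.31) and Agpat5 -0.41 (SE 0.26). Of the adipocyte markers 3 of 7 were higher and 4 lower, and their summed level, in units of each array's 75th percentile, was 1.58 to 2.54 in vehicle and 1.68 to 1.99 in DMBA (0.426 to 0.538 and 0.416 to 0.634 without Retn, which made up 73.8% of it).

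Cpt1c encodes the brain form of carnitine palmitoyltransferase, which lies in the endoplasmic reticulum and has little transferase activity. It was read by 2 probes. The brighter read -0.30, 0.31 and -0.20 in vehicle and 2.59, 0.91 and 1.98 in DMBA. The other read -1.25, 0.57 and 0.16 against 0.96, 2.13 and 2.06. The groups did not overlap on either probe, with gaps of 0.60 and 0.39, and both gave a difference of 1.89 (SE 0.46 for the brighter). The probes ordered the DMBA arrays differently: DMBA 1 was the highest on the brighter probe and the lowest on the other.

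The forms of the enzyme that import fatty acids into mitochondria did not share this value. Cpt1a had -0.55 (SE 0.32; -0.33 on its other probe) and Cpt1b -0.09 (SE 0.24), with -3.01 on a dim probe that was not well above background on any DMBA array. Cpt2 had 0.70 (SE 0.38) but -0.58 on its other probe, and the carnitine carrier gene Slc25a20 -0.21. Of 19 other genes of carnitine use and fatty acid oxidation 7 were higher and 12 lower (median -0.08), and for 0 of them were the groups apart. Markers of neurons and Schwann cells, where Cpt1c is best known, went both ways (3 of 6 higher, 3 lower). Tubb3 and Map2 had differences of -0.24 and 0.29. The largest were 1.14 for S100b, with overlapping groups, and -1.29 for Ncam1. Ncam1 lay wholly below vehicle, 1 of 6 beside 5.17% of all genes tested. The part of such cells in the Cpt1c value was not tested.

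**Figure D2:**
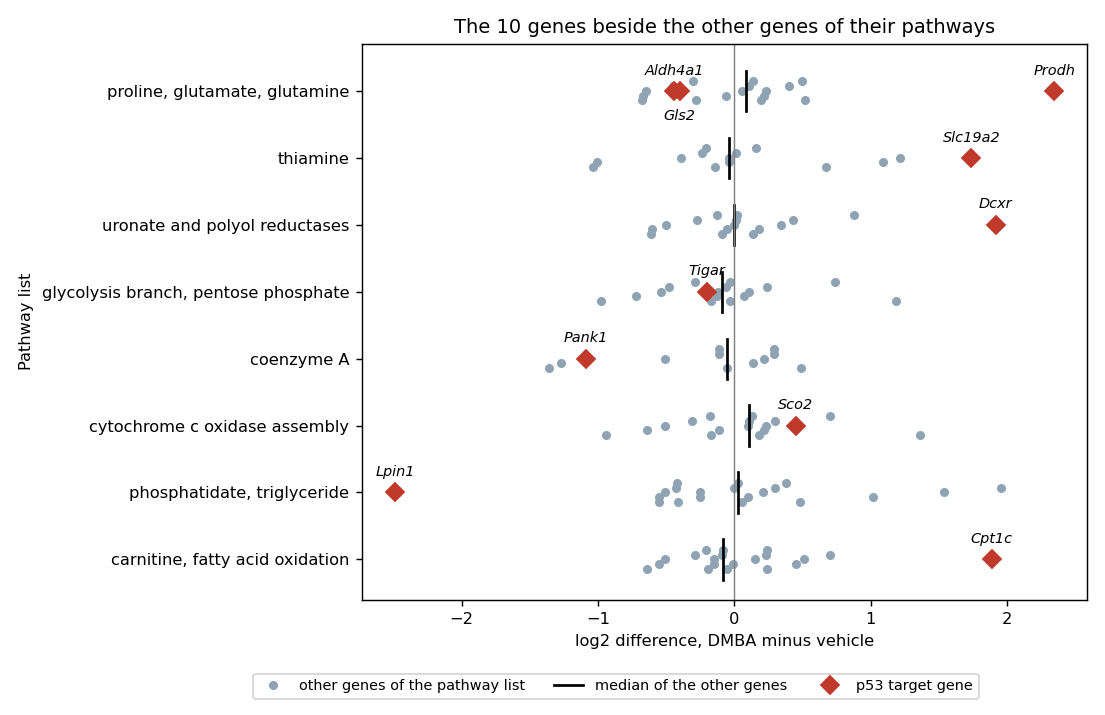
Log2 difference between DMBA and vehicle (x axis) for the 10 genes (red diamonds) and for the other measured genes of their pathways (grey points, with a black bar at each median), by pathway list (y axis). Prodh, Slc19a2, Dcxr and Cpt1c lie to the right of every other gene of their lists, and Lpin1 to the left of every one, while the medians lie between -0.09 and 0.11.

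Over the 10 gene lists, each gene counted once, 155 genes were measured besides the members. Of these, 74 were higher and 81 lower, with a median of -0.01. The groups did not overlap in 8 (5.16%, higher) and 11 (7.10%, lower), near the shares over all genes. In limma 5 positive and 3 negative differences had an unadjusted p below 0.05, and 0 passed over all genes. Other genes described as induced by p53 in metabolism numbered 19, of which 11 were higher and 8 lower, with a median of 0.15. Among the lower ones were Slc1a3, Fdxr and Sesn1, with -0.88, -0.69 and -0.51 and groups that overlapped. Sesn2, a stress-induced inhibitor of mTORC1, had 1.04 (SE 0.36) and the lysosomal fucosidase gene Fuca1 0.61 (SE 0.22), with unadjusted p of 0.0277 and 0.0298 in limma and groups that did not overlap. Of 11 genes described as repressed by p53, 6 were higher and 5 lower, with a median of 0.01. The glucose transporter gene Slc2a4 had -0.83 (SE 0.24, unadjusted p = 0.0133 in limma) and Cps1, the first enzyme of the urea cycle, -1.54 (SE 0.65). Both lay wholly below vehicle, 18.2% of the list beside 5.17% of all genes tested. For Cps1, DMBA 3 read 0.57, close to the lowest vehicle array at 0.61. Slc2a3 and Srebf1 had 0.66 and 0.43, with groups that overlapped.

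**Figure D3:**
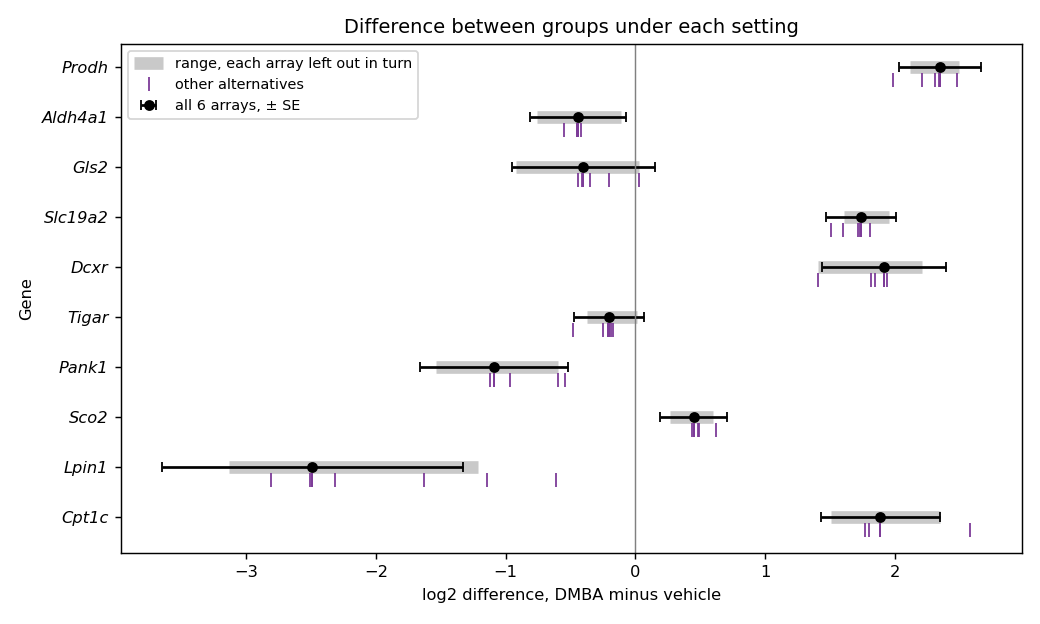
Log2 difference between DMBA and vehicle (x axis) for each of the 10 genes (y axis), as a black point with its SE, the range when each array is left out (grey bar) and the values under the other alternatives (purple ticks). Prodh stays between 1.99 and 2.50, Slc19a2 between 1.51 and 1.96, Dcxr between 1.41 and 2.21 and Cpt1c between 1.51 and 2.58, while Gls2 and Tigar reach both sides of 0.

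Within the slide that held both groups (all arrays but vehicle 1) the differences were 2.48 for Prodh, 1.81 for Slc19a2, 1.41 for Dcxr and 1.77 for Cpt1c. They were 0.49 for Sco2, -0.45 for Aldh4a1, -0.17 for Tigar, -0.60 for Pank1, -2.32 for Lpin1 and 0.03 for Gls2. The percent of probes well above background was 77.2 to 83.7 on the vehicle arrays and 69.6 to 81.1 on the DMBA arrays. With it as a covariate, Prodh had 2.21, Slc19a2 1.51, Dcxr 1.82 and Cpt1c 2.58.

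The profiles of the members were compared by the root mean square difference over the 6 arrays, on the log2 scale, after each gene's own mean was taken off. The difference between the groups stays in these values, so genes with differences of like size lie near each other in part by construction. The nearest members were Prodh and Slc19a2, 0.42 apart, followed by Tigar with Sco2 and Aldh4a1 with Sco2 at 0.53. Dcxr was nearest to Cpt1c, at 0.63. Prodh and Aldh4a1, neighbours in 1 route, were 1.46 apart. Lpin1 lay 1.69 or more from every other member.

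**Figure D4:**
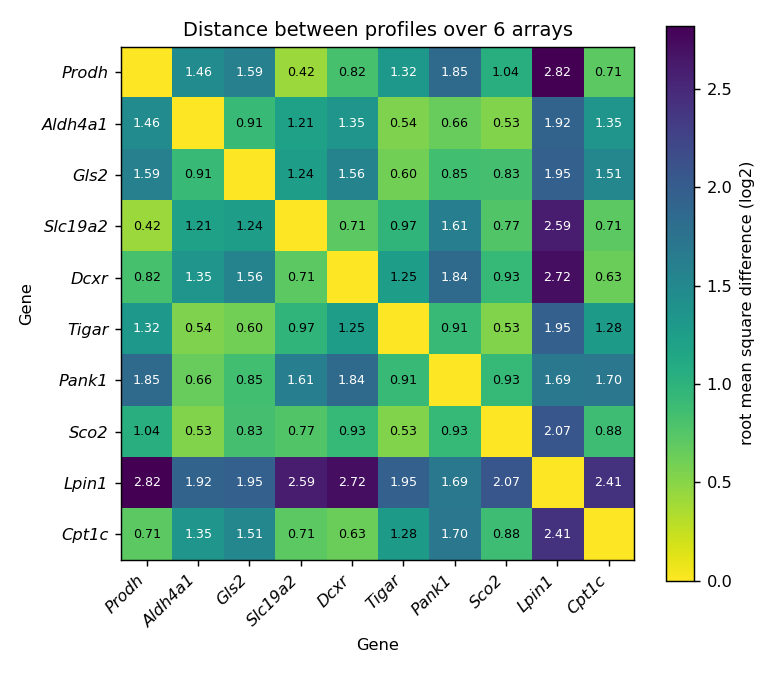
Root mean square difference on the log2 scale between the profiles of each pair of the 10 genes over the 6 arrays (colour and printed number), each gene centred on its own mean. Prodh, Slc19a2, Dcxr and Cpt1c lie 0.42 to 0.82 from each other, and the row of Lpin1 holds the highest values, up to 2.82. The distances contain the difference between the groups by which the genes were chosen.

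Among 15216 genes well above background on all 6 arrays, the nearest to Dcxr was 2610528J11Rik, at 0.23. Next was Cdkn1a, which encodes p21, the cell cycle inhibitor induced by p53, at 0.27. Cdkn1a read -0.09, 0.74 and 0.88 in vehicle and 2.42, 2.46 and 2.30 in DMBA. Vehicle 1, the array on its own slide, was the lowest for both of these genes, as for Dcxr. Such distances contain the difference between the groups, so a gene with a difference of like size is near in part by construction. Shared regulation was not tested. Slc19a2 was nearest to the galactose mutarotase gene Galm, at 0.14, and the neurotrophic factor gene Cdnf, at 0.19. Prodh was nearest to H2-Eb1, at 0.36, and Oxld1, at 0.41, and Cpt1c to Edem2, at 0.25, and the mismatch repair gene Mlh3, at 0.29. Members with small or overlapping differences had near profiles too: Tigar lay 0.037 from Son and 0.052 from Atp6v1h, and Sco2 0.062 from Ssr4 and 0.064 from Zfp11. Gls2 lay 0.090 from Rnf212b and 0.14 from Kantr, Aldh4a1 0.096 from Gpr61 and 0.10 from Kcnb2, and Pank1 0.17 from Zfp711 and 0.22 from Ncam1. Lpin1 had no gene as close: Tmem170b lay at 0.67 and Rarres1 at 0.75, and DMBA 2 was the lowest array for both, as for Lpin1.

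H2-Eb1 is 1 of 9 leukocyte markers tested, of which 4 were higher and 5 lower, with a median of -0.09. H2-Eb1, with 2.30, lay wholly above vehicle, and H2-Aa, with -0.49, wholly below. That is 1 of 9 each way, beside 4.88% and 5.17% of all genes tested. Cd74 had -0.54. The summed level of the 9 markers was 91.6 to 115 in vehicle and 88.2 to 143 in DMBA, but Itgam made up 95.7% of it. The other 8 summed to 2.52 to 7.64 and 3.42 to 4.31. Of the fibroblast markers 5 of 7 were higher (median 0.43), with summed levels of 1.94 to 5.11 in vehicle and 4.06 to 5.02 in DMBA. Dcn and Col1a1, with 1.51 and 1.29, lay wholly above vehicle, 2 of 7 beside 4.88% of all genes tested. Col3a1 and Twist2 had -0.52 and -0.43. Of the melanocyte markers 4 of 9 were higher (median -0.05), with sums of 2.97 to 4.48 and 4.15 to 6.78. Without Mlana, 37.9% of the sum, these were 2.65 to 3.52 and 1.57 to 4.26. All 3 erythroid markers tested were higher (median 0.72), with overlapping groups. The summed endothelial and muscle markers did not overlap between the groups, at 3.24 to 3.52 and 3.73 to 4.61, with 5 of 7 genes higher. Their median was only 0.03. Eng, with 1.14, was the 1 gene of them with groups apart, and Pecam1 and Myh11 had -0.51 and -0.17. Without Kdr (0.05), which made up 56.5% of the sum, the sums were 1.19 to 1.39 and 1.42 to 2.6. Of the 12 markers of infundibulum, interfollicular epidermis and sebaceous gland 6 were higher and 6 lower (median -0.02), with summed levels of 68.9 to 90.5 in vehicle and 66 to 97.9 in DMBA. Among them Ly6a, the gene of the antigen that the gate excludes, had 1.45 with groups apart and Lrig1 had -0.54. The part of these cells in the values of the 10 genes was not tested. Each array detected all 12 markers of follicle stem cells and hair germ well above background, with summed levels of 365 to 441 in vehicle and 383 to 557 in DMBA. Without Krt14, 38.7% of the sum, the levels were 218 to 275 and 241 to 326. Of these 12 markers, 4 were higher and 8 lower (median -0.05). Krt15 had 0.19 and Cd34 -0.01. Lgr5 and Sox9, with -0.64 and -0.50, lay wholly below vehicle, 2 of 12 beside 5.17% of all genes tested. Trp53 itself had a difference of 0.12 (SE 0.25), the p53 targets Ccng1 and Mdm2 1.79 (SE 0.35) and 0.16 (SE 0.39).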

How the data were processed

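Expression was measured on 6 arrays, 3 per group. Per the file headers and the submitters' processing notes, Agilent Feature Extraction 10.7.1.1 was used on the scans, and the deposited files hold intensity after background correction. The deposited matrix holds intensity divided by each array's 75th percentile (column values from 1.004 to 1.007) and served as an alternative. Its direction and linear scale followed the scanner files (r across probes from 0.99992 to 0.99997), and its column medians ran from 0.154 to 0.172.

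Values were log2 intensity minus the log2 75th percentile of each array, which lay between 1355 and 2274. The 3671 control spots were left out, and 45 outlier probe values were treated as missing (15 genes tested, none a member, lacked an array). A probe was kept if 3 or more of the 6 arrays called it well above background (44955 of 55681). Accessions named 28331 probes through RefSeq on GRCm38.p6, used for names and promoter windows only, since the headers name mm9. A gene was represented by its brightest kept probe (4641 genes had several), and levels are not compared between genes. All 13 probes of the 10 genes were kept.

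Groups were compared with limma 3.58.1 in R 4.3.3 (two-sided, no covariates, Benjamini-Hochberg over 17848 genes at 0.05, SE after eBayes), and the fit was tested on simulated data. No spot was saturated, and the number of arrays limits the precision. Vehicle 1 lay on a slide of its own. Deviations of arrays with the same replicate number correlated with r of 0.02, -0.02 and 0.06, so the numbers were not taken as pairs. The members and lists were chosen with earlier results of these data known. Named genes were all members, listed paralogs and partners (some not reported here), up to 2 genes per list and direction with groups apart and the higher group above background, and the 2 nearest profiles of each member. The alternatives were filters, normalization, background correction, probe choice, blocks, a covariate and leaving out each array. The files hold no mean spot signal among the columns used, so normexp (offset 50) was run on the median signal.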

Additional observations from a re-analysis of the deposited data

How the results depend on the processing

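With 3 arrays a group, precision is limited by the spread between mice, and dim probes such as those of Lpin1 near background. Prodh, Slc19a2, Dcxr, Cpt1c and Sco2 stayed higher and Aldh4a1, Pank1 and Lpin1 lower under all 8 alternatives that gave them a value and with each array left out. Gls2 changed sign without vehicle 1 (0.03), which equals slide as a block, and Tigar without DMBA 1 (0.01). The covariate moved Lpin1 to -0.61 and Cpt1c to 2.58, and it moved the median of all genes to 0.10. The median over the members ran from 0.06 to 0.26 and the number higher from 5 to 6 when each array was left out. Of all kept probes of the members 7 of 13 were higher, with a median of 0.20. With the replicate block 510 positive and 469 negative differences had an unadjusted p below 0.05, 0 passed the threshold, and the median over the members stayed 0.13.

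With no filter on dim probes 1258 genes were higher and 455 lower by unadjusted p, and 1803 lay wholly above vehicle. With all kept probes tested these counts were 1207 and 2153, and those lower 998 and 1911, by construction since more features entered. With the covariate 766 were higher at unadjusted p, and the cause was not tested. Leaving out each array gave 0 to 1 genes past the threshold (1 without vehicle 2), 466 to 534 higher and 395 to 727 lower at unadjusted p (727 without DMBA 1), and, with fewer arrays to overlap, 1491 to 1763 wholly above and 1579 to 2853 wholly below vehicle. The medians of the pathway lists stayed between -0.20 and 0.22 throughout.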
